A study of Mus musculus with 8 samples.

Results

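The class I olfactory receptors of the mouse lie together on chromosome 7, on both sides of the beta-globin genes, and the probes for this cluster were followed in skeletal muscle. Members were all non-control probes whose RefSeq accession belongs to a gene with a symbol between *Olfr543* and *Olfr714*, whatever their signal. The rule gave 133 of the 56605 probes of the array. They belong to 130 of the 22911 genes that could be named on it, and RefSeq has 136 genes in this number range. All of them are on chromosome 7. The older MOR names of these genes, in which MOR1 to MOR42 are class I, put 109 probes in class I and 18 in class II, and 6 had no clear name. The class II probes all belong to *Olfr693* to *Olfr714*, so that the end of the number range leaves the class I cluster.

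The muscles came from 3 Grsf1cKO mice and 3 wild-type (WT) mice, all male and 17 months old. Their RNA carried the dye Cy3 and was read on Agilent 1-color arrays. In Grsf1cKO mice, exons IV and V of *Grsf1*, which encodes a mitochondrial RNA-binding protein, were floxed and deleted with Myf5Cre, after FLPo had removed the LacZ and Neo cassettes of the Grsf1tm1a allele. Myf5 marks the muscle lineage, and whether cells of other lineages in the muscle keep the gene was not measured. The allele came from a C57BL/6N line, and the strain after these crosses and the Cre and floxed alleles of the WT mice were not given in the sources used here. The labels name the muscle as the vastus intermedius and the methods as the rectus femoris, another muscle of the quadriceps. WT 1 and Grsf1cKO 1 were each measured on a repeat array, so that 8 arrays cover 6 mice, and the arrays of a mouse were averaged and counted as 1 replicate.

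Olfactory receptors are G protein-coupled receptors. In the nose each sensory neuron expresses a single receptor gene from a single allele, and the receptor signals through the G protein subunit encoded by *Gnal* and adenylyl cyclase 3. Class I receptors resemble those of fish and many of them bind acids and other hydrophilic odorants, while class II receptors make up most of the mammalian family. A few receptors are known outside the nose. *Olfr544* binds azelaic acid and has been studied in adipocytes and liver, *Olfr558* binds short-chain fatty acids, and *Olfr78* is a class I receptor for short-chain acids in the carotid body and kidney.

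The knockout and the tissue were checked first. The *Grsf1* probe read 12.08 ± 0.06 in Grsf1cKO and 14.28 ± 0.03 in WT (log2 signal, SD, n = 3), a difference of -2.19 (limma adjusted *p* = 0.00328). All 7 markers of muscle fibers, including *Acta1* and *Ckm*, were well above background on all 8 arrays. Of 7 markers of olfactory sensory neurons, 5 were as well, and *Rtp1*, which carries receptors to the cell surface, was above it on 0 arrays. None of the 7 muscle fiber markers and of the 6 neuron markers that could be tested was called between genotypes. The muscle fiber marker *Myh7* varied between mice within both genotypes. It read 9.27, 11.38 and 11.33 in WT and 11.35, 9.46 and 9.39 in Grsf1cKO. The repeat array of Grsf1cKO 1 stood apart from the others. Its 25th percentile of processed signal over all probes was 55.5, against 9.68 to 15.7 on the other 7 arrays, and results that rest on this array are given with and without it. The arrays also lie on 2 slides, with WT 2 and the first array of WT 1 on slide 1 and the 6 other arrays on slide 2. Only slide 2 therefore holds arrays of both genotypes. Comparisons over all 8 arrays also set WT arrays of slide 1 against Grsf1cKO arrays of slide 2.

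A probe was called well above background where Agilent's software set that flag on its spots. On most arrays fewer than 1 in 3 of the class I cluster probes carried it. The share was 29.3%, 30.8% (repeat array), 26.3% and 21.8% on the arrays of WT 1, WT 1, WT 2 and WT 3. It was 24.1% on the first array of Grsf1cKO 1, 13.5% in Grsf1cKO 2 and 21.1% in Grsf1cKO 3. On the repeat array of Grsf1cKO 1 the share was 69.9%, so that one array flagged more of these probes than any other. Counting a probe for a mouse where it was flagged on all arrays of that mouse, the share was 19.0% ± 4.83 in Grsf1cKO and 23.6% ± 2.42 in WT (SD, n = 3). The mice ranged from 13.5% to 22.6% and from 21.8% to 26.3%, and the genotypes overlapped. The difference of -4.51 percentage points was -6.27 with the first arrays and -7.27 within slide 2. It turned to 8.52 with each repeat array in place of its first array. As a share over the members it was not tested.

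**Figure D1:**
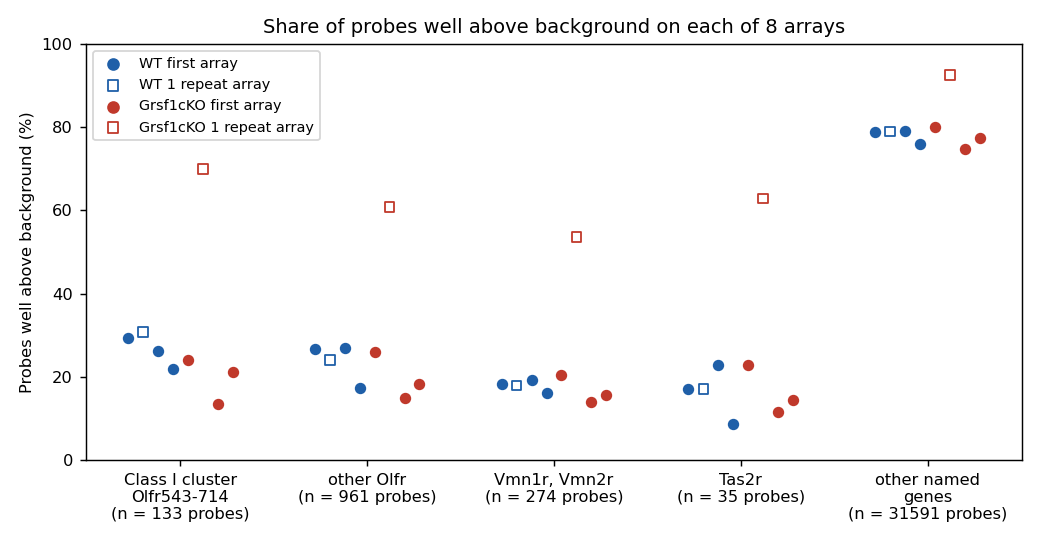
Percentage of probes well above background (y axis, %) on each of the 8 arrays for 5 groups of probes, with 1 point per array, WT in blue, Grsf1cKO in red and repeat arrays as open squares. In the class I cluster 7 arrays lie between 13.5% and 30.8%, and the repeat array of Grsf1cKO 1 lies at 69.9%.

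Other chemoreceptor families also had low shares. Per mouse, 19.3% of the 961 probes of other olfactory receptors were well above background in Grsf1cKO and 21.4% in WT. For vomeronasal receptors (*Vmn1r* and *Vmn2r*, 274 probes) the shares were 16.3% and 16.5%, and for bitter taste receptors (*Tas2r*, 35 probes) 16.2% and 14.3%. Other named genes stood at 77.3% in both genotypes. These shares are descriptions, since probes of a family share sequence and each mouse gives all of its probes.

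The signal of the cluster was close to that of negative control spots but not equal to it. The median processed signal of the 133 probes was 5.03 to 10.3 on the 7 arrays, and 47.2 on the repeat array of Grsf1cKO 1, while the negative control spots had medians of 3.29 to 5.43 on all 8. Between 50.4% and 68.4% of the probes exceeded the 95th percentile of the negative controls of their own array on the 7 arrays, and 92.5% did so on the repeat array of Grsf1cKO 1. No member was saturated. A probe can bind transcripts of related receptors, and the probe sequences were not used here, so a signal above background names a probe and not with certainty its gene.

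The repeat arrays gave the technical error of the calls. For WT 1 the flag was the same on both arrays for 113 of the 133 probes. Where both arrays flagged a probe, the SD of the log2 difference was 0.414. For Grsf1cKO 1 the flag was the same for 68 probes, 63 carried it on the repeat array alone and 2 on the first array alone, and the SD was 0.977. Among the probes flagged on both arrays of this mouse *Olfr574* moved most, by 3.17, from 4.47 to 7.64, and some probes flagged on the repeat alone moved further, such as *Olfr685* from 2.21 to 6.89.

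**Figure D2:**
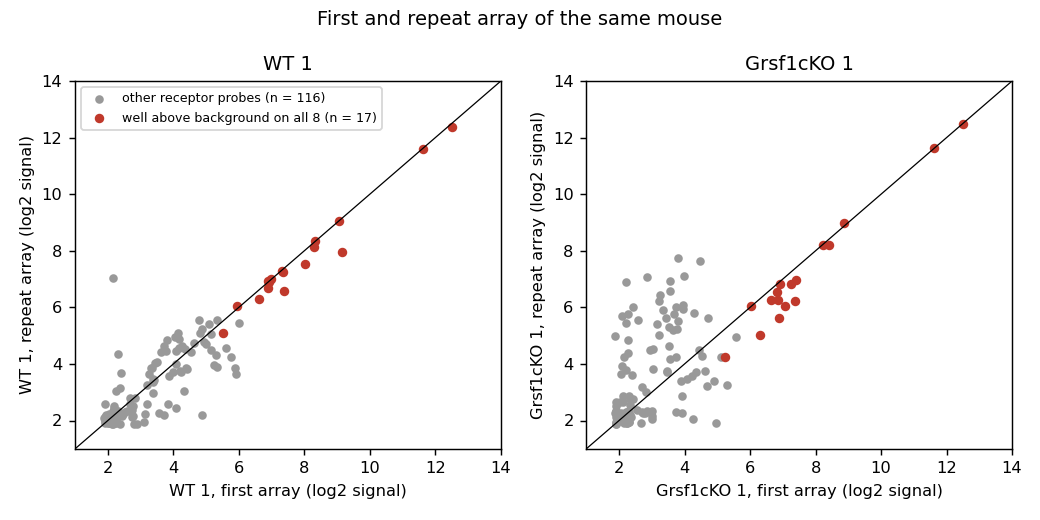
Log2 signal of the 133 probes on the first array (x axis) and the repeat array (y axis) of WT 1 and Grsf1cKO 1, with the 17 fully detected probes in red, the other 116 in gray and the line of equal signal. For Grsf1cKO 1 many dim probes lie far above the line, and the SD of the difference where both arrays were above background is 0.977, against 0.414 for WT 1.

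Few receptors were read in every mouse. Of the 133 probes, 35 were well above background on 0 of the 8 arrays and 43 on 1 array, of which 39 were so on the repeat array of Grsf1cKO 1 alone. Leaving that array out, 74 probes were not well above background on any of the other 7. On all 8 arrays, 17 probes (12.8%) were well above background, and the same number on the other 7. The shares on all 8 arrays were 10.9% for other olfactory receptors and 61.7% for all probes. The 17 genes are *Olfr544*, *Olfr549*, *Olfr553*, *Olfr558*, *Olfr570*, *Olfr571*, *Olfr576*, *Olfr609*, *Olfr612*, *Olfr616*, *Olfr629*, *Olfr656*, *Olfr666*, *Olfr671*, *Olfr681*, *Olfr700* and *Olfr704*. *Olfr700* and *Olfr704* are class II, *Olfr681* has no clear MOR name, and the other 14 are class I.

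Along the chromosome the genes with signal were scattered. In RefSeq order, 64 receptor genes lie before the beta-globin genes (*Olfr543* to *Olfr630*) and 66 after them (*Olfr631* to *Olfr714*). Of the first, 11 were well above background on all 8 arrays and 15 on 0 arrays. Of the second, 6 were on all arrays and 19 on 0 arrays. Of 107 class I genes 14 were on all 8 arrays, and of 18 class II genes 2 were. Neighbors could differ, as for *Olfr544* on 8 arrays and *Olfr543* next to it on 2.

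**Figure D3:**
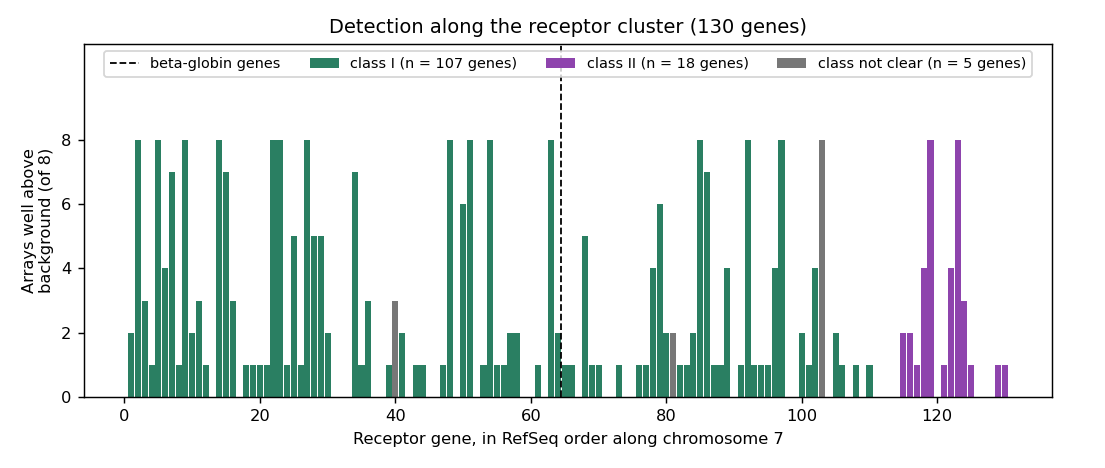
Number of arrays, of 8, on which each of 130 receptor genes was well above background (y axis), in RefSeq order along chromosome 7 (x axis, rank), with class I in green, class II in purple, unclear names in gray and the beta-globin genes as a dashed line. Genes read on all 8 arrays are spread over both sides of the line, 11 before and 6 after it.

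The sequence before the annotated start was read for the genes with signal, from RefSeq (GRCm38.p6). A window was found for 112 of the 130 member genes, but in 82 of them (73.2%) the annotated start is the start codon itself, so that these windows lie next to the coding sequence and need not hold a promoter. Of the genes well above background on all arrays, 4 had an annotated start ahead of the codon, and their 250 bases before it are shown because they are the nearest to a promoter that these receptors have in the table. Capitals mark TATAAA and TAATTA, the core of many homeodomain sites, on either strand.

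Olfr544: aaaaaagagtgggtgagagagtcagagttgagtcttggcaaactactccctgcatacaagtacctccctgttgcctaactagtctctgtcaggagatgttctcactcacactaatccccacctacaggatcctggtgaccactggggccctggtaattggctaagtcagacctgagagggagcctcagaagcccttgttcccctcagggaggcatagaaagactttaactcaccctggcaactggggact
Olfr558: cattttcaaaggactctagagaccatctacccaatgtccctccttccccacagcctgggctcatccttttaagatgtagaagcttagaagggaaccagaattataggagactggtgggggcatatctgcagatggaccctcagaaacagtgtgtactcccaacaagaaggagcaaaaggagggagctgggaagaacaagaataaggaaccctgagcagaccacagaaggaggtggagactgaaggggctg
Olfr570: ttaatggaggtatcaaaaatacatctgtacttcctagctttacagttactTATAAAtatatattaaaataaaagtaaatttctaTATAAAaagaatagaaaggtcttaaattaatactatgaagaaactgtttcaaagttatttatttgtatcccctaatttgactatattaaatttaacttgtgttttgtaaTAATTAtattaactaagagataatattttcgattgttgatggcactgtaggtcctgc
Olfr629: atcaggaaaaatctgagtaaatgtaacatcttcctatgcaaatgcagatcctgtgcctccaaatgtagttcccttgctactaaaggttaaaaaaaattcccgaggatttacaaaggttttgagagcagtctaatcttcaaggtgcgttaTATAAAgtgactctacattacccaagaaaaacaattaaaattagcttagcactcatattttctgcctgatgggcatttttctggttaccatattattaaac

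The windows are at chr7:102488308-102488557 on the minus strand for *Olfr544*, chr7:102702073-102702322 on the plus strand for *Olfr558*, chr7:102900092-102900341 on the plus strand for *Olfr570* and chr7:103741323-103741572 on the minus strand for *Olfr629*. They differ in base composition. G and C make up 51.6% of the *Olfr544* window and 50% of the *Olfr558* window, against 34.8% in *Olfr629* and 23.6% in *Olfr570*, and the median over the 112 member windows is 35.8%. Neither word is in the *Olfr544* and *Olfr558* windows. TATAAA is in the *Olfr570* and *Olfr629* windows, and TAATTA in that of *Olfr570*. Over all members TATAAA was in 40.2% of windows and TAATTA in 11.6%, against 39.3% and 19.0% for other olfactory receptors and 12.4% and 4.84% for all windows of the table. TAATTA was in 28.6% of the 14 windows of fully detected genes and in 9.18% of the 98 others, a difference of few windows that was not tested. Each word was searched on both strands, and TATAAA and TAATTA can share bases only at their ends.

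Of the 17 probes, 13 had genotypes that overlapped, 4 were lower without overlap (*Olfr609*, *Olfr612*, *Olfr681* and *Olfr700*) and 0 higher. Over all probes with full detection 6.14% were lower without overlap and 3.09% higher. With the first arrays *Olfr609* overlapped. Of the 17, 6 spanned less than 0.5 over the 8 arrays (log2 signal). *Olfr544* read 11.62, 11.95 and 11.66 in the 3 WT mice and 11.62, 11.95 and 11.85 in the 3 Grsf1cKO mice. Its difference was 0.06 (SE 0.136, limma adjusted *p* = 0.998). The genotypes overlapped, and the values spanned 0.34 over all 8 arrays. *Olfr558* read 8.34, 8.29 and 8.21 in WT and 8.30, 8.10 and 7.98 in Grsf1cKO, which overlap, with a difference of -0.15 (SE 0.110, adjusted *p* = 0.996). *Olfr553* read 9.05, 9.01 and 8.89 in WT and 8.92, 9.01 and 8.67 in Grsf1cKO, which overlap too. The *Olfr571* probe read 12.45, 13.03 and 12.59 in WT and 12.49, 12.70 and 12.50 in Grsf1cKO. Its difference of -0.12 (SE 0.171) was smaller than the spread among WT mice, and turned to 0.07 on slide 2.

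**Figure D4:**
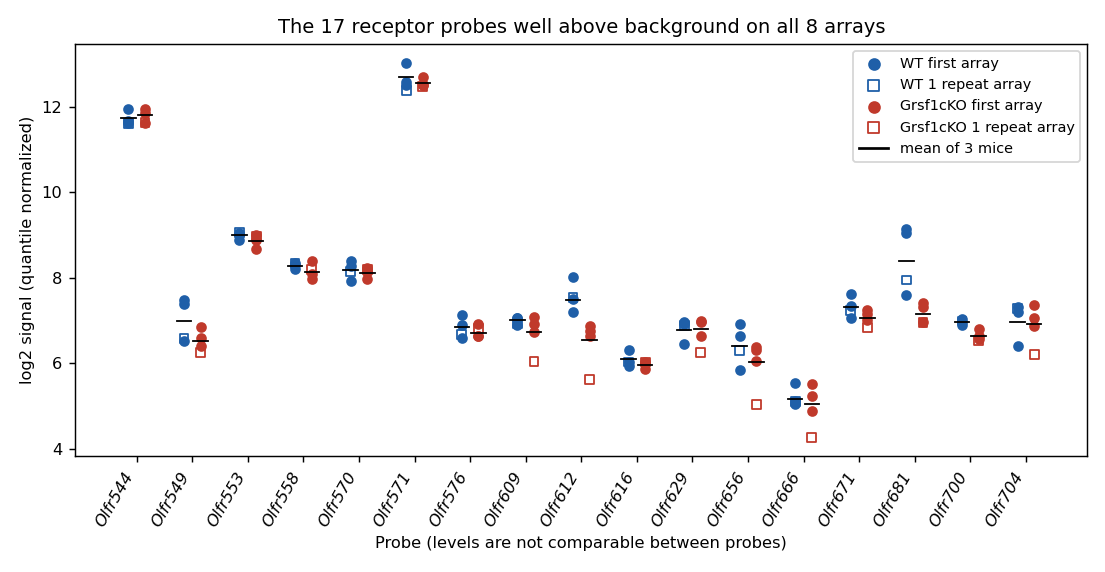
Log2 signal after quantile normalization (y axis) of the 17 fully detected probes, with 1 point per array, WT in blue, Grsf1cKO in red, repeat arrays as open squares and bars at the mean of 3 mice. For Olfr681 the arrays of WT 1 on slide 1 and WT 2 lie at 9.15 and 9.05 and those on slide 2 at 7.95 and 7.59, and for Olfr612 all 4 WT arrays lie above all 4 Grsf1cKO arrays.

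The differences of the 17 leaned to lower signal in Grsf1cKO by a small amount. The median over the 17 was -0.15, with 15 below 0 (88.2%). Over the 34936 probes of the whole array with full detection it was -0.02, with 57.7% below 0. Over 105 other olfactory receptors with full detection it was -0.22, with 82.9% below 0. For these 105 it was -0.13 without the repeat array of Grsf1cKO 1, -0.12 on slide 2 and -0.07 after scaling to the 75th percentile. Relative to the WT mean, the median of the 17 stood at 0.04 for WT 1, 0.19 for WT 2 and -0.10 for WT 3. For Grsf1cKO 1, 2 and 3 it stood at -0.28, -0.19 and -0.21, so the genotypes did not overlap. Over the 105 other olfactory receptors they did not overlap either, with -0.37, -0.12 and -0.16 in Grsf1cKO and -0.05, 0.15 and -0.11 in WT. Over all 133 probes they overlapped, with 0, -0.07 and -0.12 in Grsf1cKO and 0.02, -0.04 and 0.02 in WT. Array and slide moved with the median of the 17. The repeat array of Grsf1cKO 1 was the lowest of the 8 arrays for 10 of the 17 probes, WT 2 was the highest for 7, and WT arrays of slide 1 were higher than those of slide 2 for 14, by a median of 0.27, a comparison that also sets WT 2 against WT 3. In WT 1 alone, slide 2 minus slide 1 had a median of -0.10. Without the repeat array the median was -0.12, with 13 below 0. On slide 2 alone it was -0.08, with 12 below 0. After scaling to the 75th percentile the median of the 17 was -0.10, with 13 below 0. Over all 133 probes the median was -0.07, and it turned to 0.15 when each array was scaled to its 75th percentile, a scaling that moved the median of all probes from -0.01 to 0.07.

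Only probes with a signal well above background in 3 or more mice were tested for genotype, which left 27 of the 133 members. A called change had a fold change over 1.5, a *p* under 0.01 and a false discovery rate under 0.2 over all 38888 probes tested. No member passed. Over the whole array 0.00257% of the tested probes passed as higher and 0.00514% as lower in Grsf1cKO, which is 1 and 2 probes. The lowest adjusted *p* of a member was 0.996, and over the limma alternatives it lay between 0.57 and 1. The 0.57 is that of *Olfr661* with the first arrays, a probe flagged there in all 3 WT mice and in 0 Grsf1cKO mice, so that it passed through the group where it is high. At an unadjusted *p* under 0.05, 4 members were lower (*Olfr657*, *Olfr612*, *Olfr700* and *Olfr681*) and 0 higher, against 2.96% and 1.29% of all tested probes. With fold change and *p* but no false discovery rate, 2 were lower (*Olfr612* and *Olfr657*) and 0 higher, against 0.424% and 0.1%. By mouse, 5 of the 27 tested members were lower without overlap and 0 higher, against 6.27% of tested probes lower and 3.08% higher. Of 199 other olfactory receptor probes tested, 32 were lower and 1 higher at *p* under 0.05.

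*Olfr681* had the largest difference of the 17. It read 8.55, 9.05 and 7.59 in WT 1, 2 and 3 and 7.18, 6.96 and 7.31 in Grsf1cKO 1, 2 and 3. All 3 WT mice were above all 3 Grsf1cKO mice, and WT 3 was nearest to them. The difference was -1.25 (SE 0.368, unadjusted *p* under 0.05, limma adjusted *p* = 0.996). An exact permutation test of the 6 mice gave *p* = 0.1, the smallest that 3 against 3 allows. The WT arrays split by slide. The same WT 1 mouse read 9.15 on slide 1 and 7.95 on slide 2, a gap of 1.2 that was the largest of any member in this mouse where both of its arrays were above background, and WT 2 on slide 1 read 9.05. Within slide 2 the difference was -0.62, and with slide as a block also -0.62, both with an unadjusted *p* under 0.05. Without WT 1 it was -1.16 and no longer had a *p* under 0.05. A second probe for *Olfr681* was well above background on 2 of 8 arrays (the repeat of Grsf1cKO 1 and the first array of WT 1), too few to compare the genotypes.

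*Olfr612* was lower in Grsf1cKO on every array, though its adjusted *p* did not pass. It read 7.78, 7.5 and 7.19 in WT and 6.25, 6.75 and 6.64 in Grsf1cKO, with no overlap. The difference was -0.94 (SE 0.2, unadjusted *p* under 0.01, adjusted *p* = 0.996), and the exact permutation test gave 0.1. The repeat array of Grsf1cKO 1 read 5.63 where its first array read 6.87, and without it the difference was -0.77. Within slide 2 it was -0.81, also with an unadjusted *p* under 0.05, and with slide as a block -0.77 with a *p* above 0.05. After normexp background correction it was -0.57. Each WT array, from 7.19 to 8.03, was above each Grsf1cKO array, from 5.63 to 6.87.

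*Olfr700*, a class II gene, had the smallest spread of the 4. It read 6.98, 7.03 and 6.90 in WT and 6.67, 6.58 and 6.64 in Grsf1cKO. The genotypes did not overlap, and the difference of -0.34 (SE 0.0832, unadjusted *p* under 0.01, adjusted *p* = 0.996) is under the fold change of a call. Scaled to the 75th percentile it was -0.22, with an unadjusted *p* above 0.05. *Olfr657* read 5.22 in WT 2, 4.96 in WT 3 and 4.36 and 4.64 in Grsf1cKO 2 and 3. Its WT 1 arrays read 5.61 and 4.55 and its Grsf1cKO 1 arrays 5.29 and 3.24, so that the arrays overlapped where the mouse means did not. The difference of -0.66 (SE 0.133, unadjusted *p* under 0.01, adjusted *p* = 0.996) was -0.34 without the repeat array of Grsf1cKO 1, -0.27 with slide as a block and -0.13 after normexp, each with an unadjusted *p* above 0.05.

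For *Olfr549* the WT signal moved with the slide. It read 6.99, 7.47 and 6.52 in WT and 6.56, 6.41 and 6.59 in Grsf1cKO, which overlap, with a difference of -0.47 (SE 0.241, adjusted *p* = 0.996). Within WT its arrays on slide 1 averaged 7.43 and those on slide 2 averaged 6.55, and within slide 2 the genotypes differed by -0.03. *Olfr609* read 6.92, 7.05 and 7.05 in WT and 6.56, 6.91 and 6.74 in Grsf1cKO. These did not overlap by mouse, with a difference of -0.27 (SE 0.116, adjusted *p* = 0.996), but without the repeat array of Grsf1cKO 1 the difference was -0.10. The 10 tested probes read on fewer than 8 arrays ranged from -0.82 for *Olfr611* (SE 0.716) to 0.57 for *Olfr574* (SE 0.562), and *Olfr574* was the one above 0. With the first arrays alone these were -0.68 and 0.02. Of the others, *Olfr577* had -0.70 (SE 0.351), *Olfr559* -0.47 (SE 0.260), *Olfr551* -0.33 (SE 0.189) and *Olfr649* -0.29 (SE 0.159), which became -0.87, -0.49, -0.47 and -0.02 with the first arrays, so that the value for *Olfr649* rests on the repeat array of Grsf1cKO 1. By mouse the genotypes overlapped for these 6, and each adjusted *p* was 0.996. With the first arrays *Olfr551* and *Olfr577* were lower without overlap, with an unadjusted *p* under 0.05 and an adjusted *p* of 0.992.

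**Figure D5:**
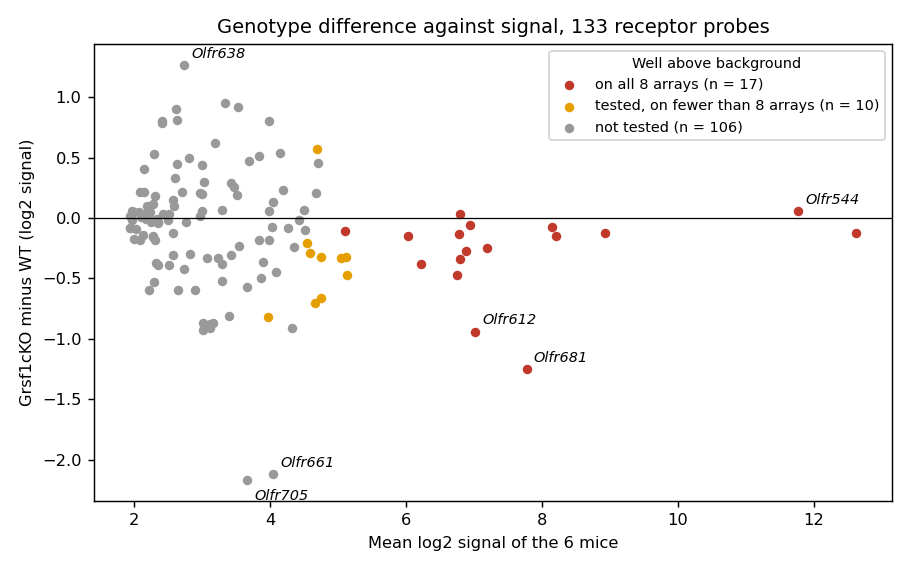
Grsf1cKO minus WT difference in log2 signal (y axis) against the mean log2 signal of the 6 mice (x axis) for the 133 probes, with those on all 8 arrays in red, the other tested probes in orange and probes not tested in gray. Differences of the gray probes are not measured changes where a genotype lies at background, while most of the 17 probes lie near 0, apart from Olfr612 at -0.94 and Olfr681 at -1.25.

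Over all 133 probes, tested or not, the genotypes did not overlap for 4 higher probes (3.01%) and 9 lower probes (6.77%), against 3.35% and 5.32% of all probes, so the shares were near the background. The higher ones were *Olfr557*, *Olfr568*, *Olfr638* and *Olfr675*, and the lower ones *Olfr609*, *Olfr612*, *Olfr648*, *Olfr657*, *Olfr661*, *Olfr681*, *Olfr683*, *Olfr700* and *Olfr705*. Several of these were dim probes that were not tested. *Olfr638* read 3.58, 3.12 and 3.42 in Grsf1cKO and 2.01, 2.10 and 2.19 in WT. On 0 of the WT arrays and on 1 Grsf1cKO array, the repeat, it was well above background. *Olfr661* read 2.91, 3.02 and 3.02 in Grsf1cKO and 4.78, 5.66 and 4.85 in WT, and was well above background on 3 WT arrays and on the repeat array of Grsf1cKO 1. *Olfr705* read 2.51, 2.06 and 3.17 in Grsf1cKO and 4.87, 5.52 and 3.86 in WT, and was well above background on both WT arrays of slide 1 and on the repeat array of Grsf1cKO 1. For *Olfr661* and *Olfr705* the WT 1 mouse read 5.92 and 5.89 on slide 1 and 3.64 and 3.84 on slide 2, so that the WT signal of both also moved with the slide. For all 3 probes one genotype was well above background on the repeat array of Grsf1cKO 1 alone or on 0 arrays, so its values lie at background and no difference or fold is given. *Olfr691*, a class I receptor studied outside the nose, was well above background on 0 of 8 arrays.

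The receptors known from other organs were compared as non-members. *Olfr78* lies outside the number range and was well above background on all 8 arrays, with 8.47, 8.64 and 8.68 in WT and 8.47, 8.45 and 8.44 in Grsf1cKO, a difference of -0.14 (adjusted *p* = 0.996). *Olfr16*, known as MOR23 and studied in muscle regeneration, was well above background on 2 arrays. It read 4.45, 3.90 and 4.09 in WT and 3.89, 3.65 and 3.01 in Grsf1cKO, and was not tested.

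The genes through which olfactory receptors are made and signal were present in part. Of a list of 30, 22 were well above background on all 8 arrays, 24 were tested and 0 were called. Their median difference was -0.04, against -0.03 for all tested probes, and at unadjusted *p* under 0.05 1 was higher and 1 lower, against 1.29% and 2.96% of all tested probes. *Gng13*, a G protein gamma subunit of olfactory and taste cells, read 4.93, 4.90 and 5.29 in Grsf1cKO and 4.67, 4.39 and 4.47 in WT, a difference of 0.53 (unadjusted *p* under 0.01, adjusted *p* = 0.996). *Ric8b*, an exchange factor for the olfactory G protein, read 12.81, 12.79 and 12.59 in Grsf1cKO and 13.12, 12.96 and 12.96 in WT, a difference of -0.28 (unadjusted *p* under 0.05, adjusted *p* = 0.996). For both genes the genotypes did not overlap, nor for *Slc12a2*, a chloride importer, at -0.14. Of all tested probes 3.08% were higher and 6.27% lower without overlap.

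*Gnal*, the G protein alpha subunit of olfactory neurons, differed by 0.03, *Adcy3*, the cyclase, by -0.06, and *Omp*, the marker of mature neurons, by -0.12, and all 3 were well above background on all 8 arrays. With the first arrays these were 0.11, 0.06 and 0.03, so that *Adcy3* and *Omp* changed sign. *Cnga2* and *Cngb1*, subunits of the cation channel that cAMP opens, differed by -0.33 and 0.05, and by -0.14 and 0.08 with the first arrays. *Cnga4*, the third subunit of that channel, and *Rtp1* were well above background on 0 arrays, and *Ano2*, the chloride channel of the cilia, on 3. *Lhx2*, *Ldb1* and *Ebf1*, whose proteins act at receptor enhancers in olfactory neurons, differed by 0.30, 0.09 and -0.05, and by 0.47, 0.07 and -0.03 with the first arrays. Those of them that were tested had adjusted *p* of 0.996 or 0.998.

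No gene lying between the receptors passed the test. Of 48 protein-coding genes that are not olfactory receptors between *Olfr543* and *Olfr714*, 42 had a named probe, 27 were well above background on all 8 arrays, 30 were tested and 0 were called or reached *p* under 0.05. Of all tested probes 1.29% were higher and 2.96% lower at that *p*. The median difference of the 30 was -0.02. By mouse 2 of them did not overlap, *Mrpl17* (higher) and *Rrp8* (lower), against 3.08% higher and 6.27% lower of all tested probes. WT 3 stood apart at some of the *Trim* genes of the cluster, a family of antiviral and ubiquitin ligase genes, but not in one direction. Among those tested, WT 3 was the lowest mouse at *Trim12a*, *Trim34a*, *Trim30a*, *Trim30d* and *Trim21*. At *Trim12c*, *Trim34b*, *Trim6* and *Trim68* it was the highest. Grsf1cKO 3 was the highest mouse at *Trim12a* and *Trim34a*. *Trim12a* read 10.33, 10.14 and 5.80 in WT and 10.22, 10.23 and 11.40 in Grsf1cKO, a difference of 1.86 (adjusted *p* = 0.996) that rests on WT 3. *Trim34a* read 8.73, 8.65 and 7.25 in WT and 8.63, 8.71 and 9.64 in Grsf1cKO, a difference of 0.78 (adjusted *p* = 0.996). All 4 macrophage markers were also highest in Grsf1cKO 3, and 0 were called. *Cd68* read 11.65, 11.85 and 11.57 in WT and 11.8, 11.96 and 13.3 in Grsf1cKO. A link between these markers and the *Trim* genes was not tested. *Hbb-bt*, the adult beta-globin gene in the middle of the cluster, read 16.38, 16.60 and 15.55 in WT and 15.75, 16.27 and 15.83 in Grsf1cKO (difference -0.23, adjusted *p* = 0.996). Globin RNA comes from red blood cells left in the tissue. In bulk muscle, fewer cells of a type and less RNA per cell cannot be told apart, for the globins as for the receptors.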

How the data were processed

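Total RNA of 6 muscles (3 Grsf1cKO and 3 WT mice) was measured on 8 arrays. The authors deposited, for each array, Agilent Feature Extraction output (version 12.0.3.1) with the intensity of each spot and its flags on background (other columns), and a table whose deposited score is the *z*-score of the log2 signal, which equaled one computed from the signal within 0.005. The authors' quantile normalization, presence filter and *z*-test were stated for the study.

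Control spots were left out. Processed signals were log2 transformed, spots marked as outliers were left out, and the remaining values were quantile normalized. Spots of one probe were averaged first, then arrays of one mouse. A mouse counted as detecting a probe if all its arrays flagged it, and probes detected in 3 or more mice, with values in at least 2 mice per genotype, entered a limma fit (3.58.1, R 4.3.3) with a genotype term and Benjamini-Hochberg adjustment over all tested probes. Changes are on the log2 scale, and levels are not compared between probes. The number of arrays limits precision. Probes were named through RefSeq accessions (GRCm38.p6), which named 32994 of 56605. The scripts were tested on simulated data.

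The members, gene lists and tests were chosen with earlier results of these data known. Named probes were those well above background on all arrays, the 10 with the lowest *p*, those the study lists as changed on these mice (*Olfr681*, *Olfr638* and *Olfr612*), receptors known outside the nose, and non-overlapping probes. Of the lists, only olfactory signaling, olfactory neuron, muscle fiber, between-receptor and macrophage genes are reported. The alternatives were other scalings and background corrections, the deposited *z*-scores, other filters, array choices and slide terms, an intensity trend, a replicate block, the methods' *z*-test and each mouse left out.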

Additional observations from a re-analysis of the deposited data

How the results depend on the processing

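No member was called under any setting of limma. The share difference between genotypes was -4.51 points and ranged from -6.27 to -1.75 with a mouse left out. It was -7.27 on slide 2 and 8.52 with repeats replacing the first arrays (4.76 for the share above the negative controls). The median over all members was -0.07, ranged from -0.11 to -0.02 with a mouse left out, and was 0.15 after 75th percentile scaling, -0.01 after normexp and -0.12 with the first arrays or without the repeat array of Grsf1cKO 1.

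The members lower at unadjusted *p* under 0.05 numbered 4, and 2 after 75th percentile scaling or with slide as a block, 7 with the first arrays or without a detection filter (with 2 higher), and 3 to 8 (0 to 1 higher) with a mouse left out. Over all tested probes 2.96% were lower and 1.29% higher, against 0.738% and 2.57% after 75th percentile scaling, 0.933% and 0.787% with slide as a block, 2.38% and 1.7% with the first arrays and 2.39% and 1.55% without a filter. With a mouse left out 2.53% to 3.8% of all tested probes were lower and 1.03% to 1.97% higher. The members lower past fold and *p* numbered 2. They were 1 after 75th percentile scaling, after normexp, without the repeat array of Grsf1cKO 1 or with detection in all 6 mice, and 0 with the repeat arrays in place, with slide as a block or on slide 2. Without a detection filter they were 4 lower and 1 higher, and 0 to 4 lower with a mouse left out (4 without WT 3, 0 without WT 2). Of all tested probes 0.424% were lower past fold and *p*, against 0.0669% after 75th percentile scaling, 0.0591% after normexp, 0.211% without that repeat array, 0.269% with detection in all 6 mice, 0.255% with the repeat arrays in place, 0.036% with slide as a block, 0.319% on slide 2 and 0.461% without a filter (0.295% higher). With a mouse left out this share was 0.319% to 0.787%, at 0.626% without WT 3 and 0.319% without WT 2. Non-overlapping members were 4 higher and 9 lower (3.35% and 5.32% of all probes). They were 4 and 3 after 75th percentile scaling (5.07% and 2.55%), 7 and 9 after normexp (3.9% and 5.65%), 2 and 11 with the first arrays (3.55% and 5.14%) and 12 and 13 on slide 2 (7.97% and 10.6%). With a mouse left out they were 5 to 16 higher and 12 to 20 lower, since fewer mice overlap less. In those settings 6.85% to 8.41% of all probes were higher and 9.88% to 11.1% lower without overlap.

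Over all probes, 1 higher and 2 lower were called. There were 2 higher after normexp or with an intensity trend, 1 lower on slide 2, and 1 to 2 in each direction with a mouse left out. The methods' *z*-test, run with the fold, *p* and false discovery criteria used here and without the study's *z*-ratio, average expression and ANOVA criteria, called 98 higher and 281 lower, of which 3 lower were members (*Olfr612*, *Olfr657* and *Olfr681*). A version chosen after seeing the data, on first arrays with no filter, called 346 and 507, with 1 higher member (*Olfr638*) and 5 lower (*Olfr577*, *Olfr612*, *Olfr661*, *Olfr681* and *Olfr705*). Of its 133 members 1 was higher and 6 lower past fold and *p* (0.624% and 0.933% of all probes), and 3 were higher and 10 lower at *p* under 0.05 (4.04% and 6.05%). It called 1 olfactory signaling gene and 2 genes between receptors. Same-numbered mice correlated by 0.232, 0.097 and 0.104 in their deviations, and mice of different numbers by -0.185 to 0.094. Whether the numbers mark pairs was not tested, and the main fit did not use them. With a replicate block the lower calls over all probes went from 2 to 0 and the members past fold and *p* from 2 to 0. Of all tested probes 0.465% were lower and 0.355% higher past fold and *p* with this block, against 0.424% and 0.1% without it.

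Of the 18 tested probes recomputed under the alternatives, 6 reversed, all from small changes, and the cause was not tested. *Olfr666* was 0.18 after 75th percentile scaling, 0.06 without the repeat array of Grsf1cKO 1 and -0.33 to 0.05 with a mouse left out. *Olfr704* was 0.10 after 75th percentile scaling, 0.14 with the first arrays or without that repeat, -0.35 to 0.10 with a mouse left out and 0.14 in the *z*-test on first arrays. *Olfr629* was -0.03 with the repeat arrays in place and -0.13 to 0.22 with a mouse left out. *Olfr570* was 0.05 with slide as a block, 0.07 on slide 2 and -0.19 to 0.04 with a mouse left out. *Olfr576* was 0.05, 0.08 and -0.25 to 0.02 in the same settings. *Olfr571* was 0.07 on slide 2 and -0.24 to 0.05 with a mouse left out. The 106 members too dim to test are not among these 18 probes. *Olfr578*, compared with the first arrays only, went from -0.21 to 0.11.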
